A study of Mus musculus with 6 samples.

Results

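Collagen genes made up 44 of the 23253 genes listed in at least 1 of 6 RNA libraries of mouse testis. They were taken as every gene whose symbol reads Col, a number, the letter a and a number, so that each gene codes for 1 collagen chain. The 44 genes comprise 11 chains of fibrillar collagens, the 6 chains of collagen IV, the collagen of basement membranes, and 27 chains of other collagens. Of the 44, 42 were listed in all 6 libraries.

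A collagen molecule is a rope of 3 chains wound around each other, and each chain repeats glycine at a fixed interval along the wound part. Fibrillar collagens assemble into the fibrils that bear tension in connective tissue, collagen IV forms the sheet-like network of basement membranes, and fibril-associated collagens with interrupted helices (FACITs) sit on the surface of fibrils. In the testis a basement membrane and a layer of contractile peritubular myoid cells enclose each seminiferous tubule, in which Sertoli cells and germ cells lie, and a collagen-rich capsule, the tunica albuginea, surrounds the organ.

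The messenger RNA came from whole testes of C57BL/6 mice aged 8 months. There are 3 libraries under the label control and 3 under the label cKO, for conditional knockout of L3mbtl2, which codes for a subunit of a Polycomb repressive complex. The comparison asks how the testicular transcriptome differs between these genotypes. Which allele was used, which Cre line deleted it and in which cells are not given in the labels. They also do not say whether the 3 libraries of a group stem from different mice, and a p-value here therefore reflects the spread between libraries, which could be technical in part.

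The targeted gene was examined first. FPKM, a level scaled for transcript length and sequencing depth, was 14.04, 14.89 and 13.59 for L3mbtl2 (chr15:81663889-81688315, GRCm38) in libraries 1, 2 and 3 under the label control, and 15.87, 17.09 and 16.03 under the label cKO. The groups did not overlap, and the higher group carried the label cKO. The log2 fold change of the expected counts, labelled cKO minus labelled control, was 0.67 (SE 0.10), with an adjusted p of 0.166 in edgeR and 0.000497 in DESeq2. The deposited length of its transcripts was also greater under the label cKO, at 3489 to 3498 bases against 2652 to 2838. The targeted gene was thus not lower under the label cKO, and the deposited tables are named for the opposite genotype to their samples' titles. Whether the titles or the table names are right was not tested, and each library is called here by its label only. Every direction below is between labels.

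Total expected counts were 17689205 to 18083291 under the label control and 18604191 to 18822050 under the label cKO, of which collagen genes took 0.0978 to 0.123%. The library labelled control 3 stood apart from the others, with correlations of log2 CPM (counts scaled for depth but not for length) over all tested genes of 0.923 to 0.966 to the other 5 libraries, against 0.965 to 0.982 among those 5. It held the highest value of 40.9% of all tested genes and the lowest value of 35.6%. Results for the collagen classes and for part of the collagens are given below with and without it. The libraries labelled control did not form a group of their own. Labelled control 2 correlated at 0.980 to 0.982 with the libraries labelled cKO, against 0.972 with labelled control 1 and 0.937 with labelled control 3. The defining spermatid gene Prm1 had an FPKM of 5074 to 8272 across the 6 libraries. Of 6 epididymal markers, Lcn5, Lcn8 and Spink11 were listed in no library, Adam28 and Defb12 reached at most 0.11 FPKM, and Rnase10 was at 0.91, 0 and 1.51 FPKM under the label control and 2.82, 0.04 and 2.40 under the label cKO.

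FACIT chains were the largest part of the collagen RNA, and supplied 40.6 to 59.4% of the summed collagen FPKM under the label control and 61.2 to 62.2% under the label cKO. Their summed FPKM overlapped between the labels, at 98.44 to 142.67 against 140.55 to 149.39. The 5 collagens with a mean FPKM of at least 10 were Col22a1, Col16a1, Col20a1, Col2a1 and Col15a1, and 29 of the 44 had a mean of at least 1. Col22a1, a FACIT of tissue junctions (chr15:71795795-72150979), was the highest at 62.38, 62.64 and 42.29 FPKM under the label control and 67.55, 71.52 and 65.05 under the label cKO. The library labelled control 3 was the lowest and the groups did not overlap. Col16a1, a FACIT of connective tissue (chr4:130047817-130099277), followed at 42.20, 33.65 and 25.15 FPKM against 38.13, 38.72 and 36.90. Its range in the libraries labelled control enclosed that of the libraries labelled cKO. Col20a1, a further FACIT chain (chr2:180983323-181017545), measured 21.92, 23.09 and 17.81 FPKM against 26.79, 24.03 and 23.34, with no overlap. Together these 3 FACIT chains supplied 47.0, 53.0 and 35.1% of the summed collagen FPKM in the libraries labelled control 1, 2 and 3, and 55.9, 55.0 and 55.2% under the label cKO.

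By mean FPKM over the 6 libraries the order was Col22a1 (61.9), Col16a1 (35.8), Col20a1 (22.8), Col2a1 (12.9), Col15a1 (10.7) and Col6a4 (9.87). Neighbours in that order were separated for the first 3 genes, as in each library Col22a1 exceeded Col16a1 and Col16a1 exceeded Col20a1. The ranges of Col2a1 (9.82 to 15.70) and Col15a1 (9.31 to 11.63), and of Col15a1 and Col6a4 (6.63 to 12.20), overlapped across libraries. The main chains of interstitial collagen were lower: Col1a2 had a mean of 6.59 FPKM, Col3a1 of 4.0 and Col1a1 of 2.52. At the other end, Col9a2 reached an FPKM of at most 0.10 and at most 5 counts, and Col10a1, the collagen of hypertrophic cartilage, at most 0.03 and 2 counts. These 2 genes fell below the count minimum, and no other collagen did, so 42 of 44 were tested.

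**Figure D1:**
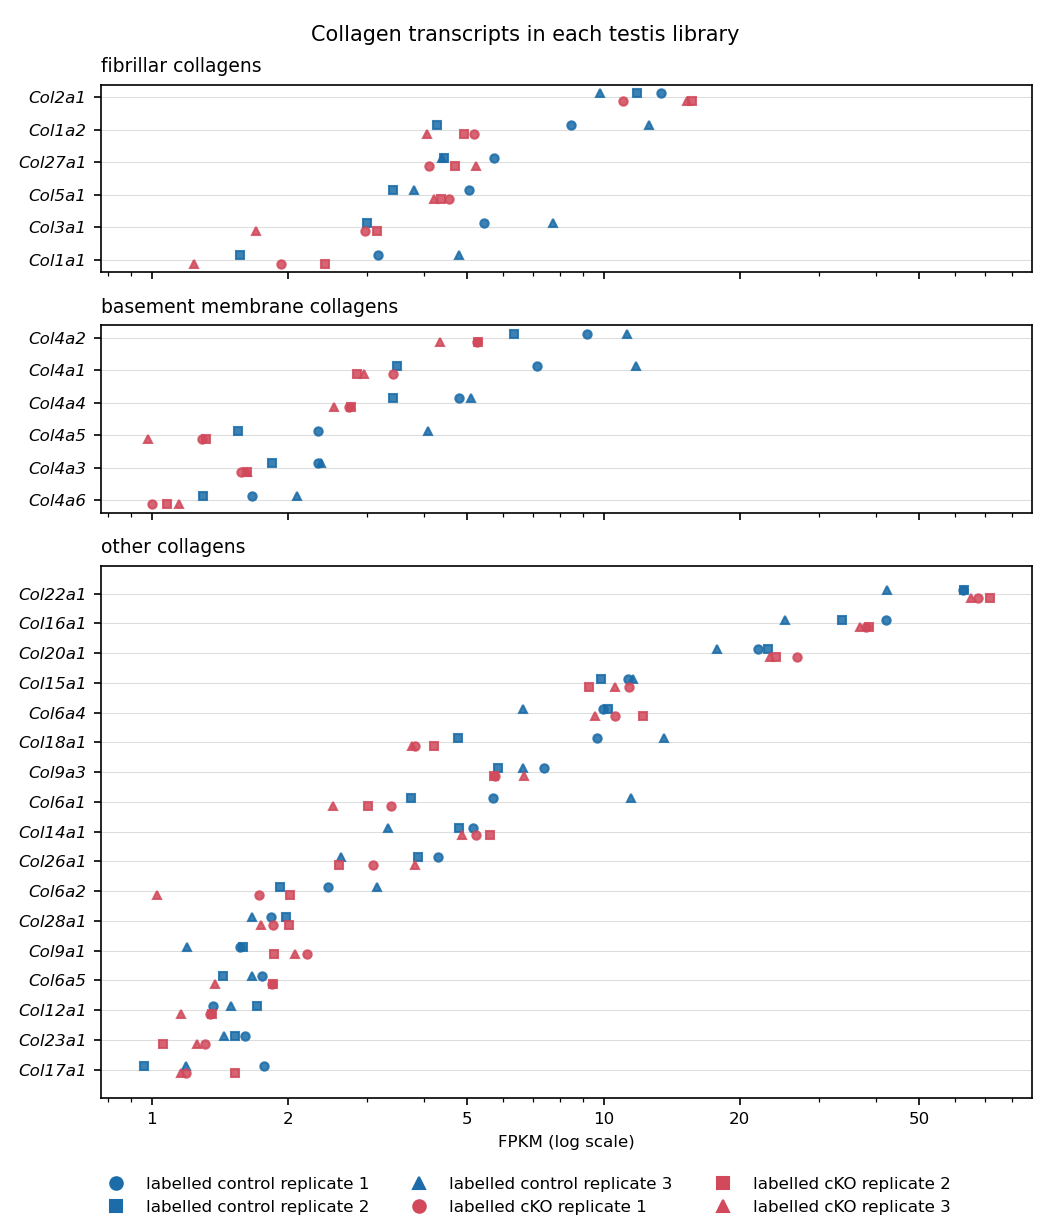
FPKM (log axis) of the 29 collagens with a mean of at least 1, in 3 panels by class, each point being 1 library, blue for libraries labelled control and red for libraries labelled cKO, with a symbol for each replicate number. All 6 collagen IV genes show blue points to the right of the red ones, while Col22a1 and Col20a1 show the reverse, and blue triangles (labelled control 3) often lie at an end.

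Several abundant members had a deposited transcript length below that of their full coding sequence. The deposited tables give for each gene and library a transcript length, which varied with the library for genes with several transcripts and is used here as the abundance-weighted length that RSEM reports. Against the longest coding sequence in GENCODE M21, available for 41 of the 44 genes, this length was below the coding length in every library for 12 genes. Col6a4, a collagen VI chain, had a median length of 2653 bases, 38.3% of its coding length of 6927 bases. Col14a1 stood at 63.2%, Col20a1 at 69.2%, Col15a1 at 70.4%, Col22a1 at 88.8% and Col16a1 at 94.5%. By contrast, Col1a2 with its 1 listed transcript had 5222 bases in every library, 127% of its coding length. A coding sequence leaves out untranslated regions, so a transcript that held the whole of it would exceed its length.

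Length also moved with the libraries. In 10 collagens the longest and shortest library differed by more than 1.1 times, and in all 10 of these the longest was a library labelled control. In 6 of them it was control 3 alone, and for Col6a6 control 1 and control 3 tied at 8833 bases. For Col4a2 the length was 4914, 4026 and 5374 bases under the label control and 4293, 4115 and 4376 under the label cKO. For Col6a4 it was 2788, 2675 and 3328 bases against 2632, 2537 and 2562, without overlap, and for Col20a1 2995, 2837 and 3060 against 2739, 2821 and 2761, also without overlap. Lengths were not compared in this way over all genes, so whether these differences are particular to collagens was not tested.

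The exon structure of the genes, which the choice of members did not use, separated the fibrillar from the collagen IV genes. A repeat unit of the helix takes 9 bases of coding sequence, and ancestral collagen exons are multiples of it. In fibrillar genes 526 of 627 internal coding exons (83.9%) had a length that is a multiple of 9 bases, in collagen IV genes 134 of 284 (47.2%) and in the other collagens 564 of 1006 (56.1%), against 14.3% of the 158666 internal coding exons of all protein-coding genes. Exons of exactly 54 bases made up 48.6% in fibrillar genes, 4.22% in collagen IV genes and 0.735% in all genes. The share per gene ran from 76.6 to 90% in the 11 fibrillar genes and from 40 to 58.1% in the 6 collagen IV genes, so these classes did not overlap. The other class ran from 22.2% in Col12a1 to 80.8% in Col23a1. Among the abundant FACIT chains, Col22a1 (75.4%) and Col16a1 (67.2%) were nearer the fibrillar genes, and Col20a1 (26.5%) and Col14a1 (28.9%) were nearer all genes.

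**Figure D2:**
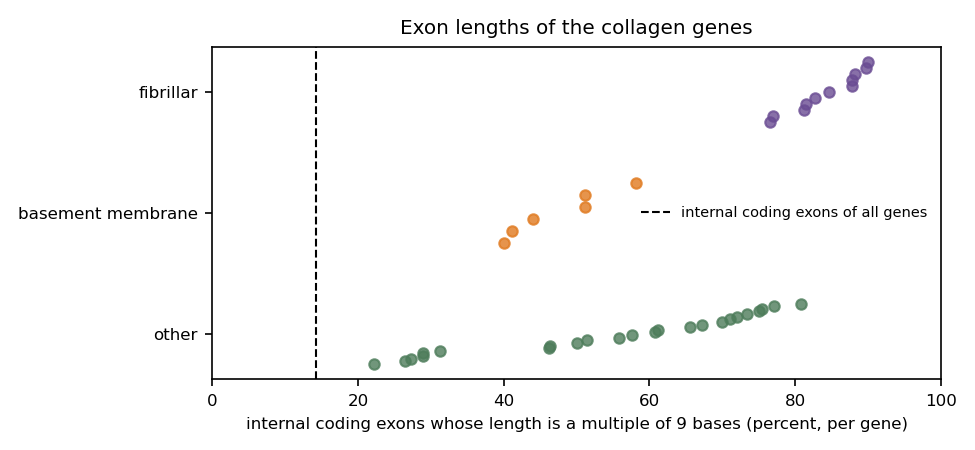
Percentage of internal coding exons whose length is a multiple of 9 bases, 1 point per collagen gene in each class (the vertical offset within a class only separates the points), with the percentage over the internal coding exons of all protein-coding genes as a dashed line. The 11 fibrillar genes lie between 76.6 and 90%, the 6 collagen IV genes between 40 and 58.1%, and the dashed line stands at 14.3%.

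The comparison of the labels was made on the expected counts of all 18269 tested genes. With edgeR's quasi-likelihood test and Benjamini-Hochberg adjustment at 0.05, no gene was called, which is 0% higher and 0% lower, and so no collagen. At an unadjusted p below 0.05 in edgeR, 11 of 42 collagens were lower under the label cKO and 1, Col9a1, was higher, where all genes gave 18.8% lower and 8.85% higher. DESeq2 at an adjusted p of 0.05 called 7 collagens lower and none higher, against 7.67% of all genes lower and 0.405% higher. Limma on log2(FPKM + 1) called no collagen, with 0% of all genes lower and 0.00650% higher. Of the log2 CPM values, 10 collagens lay lower under the label cKO without overlap (19.8% of all genes) and 4 lay higher (18.0% of all genes). The median log2 fold change over the 42 collagens was -0.29, with 27 negative and 15 positive, beside a median of -0.0048 over all genes tested.

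The classes differed in where their members lay. The 6 basement membrane genes had a median log2 fold change of -0.86 and all 6 were negative. The 11 fibrillar genes had a median of -0.49, with 7 negative and 4 positive, and the 25 tested others had a median of -0.030, with 14 negative and 11 positive. Within the others, the 8 tested FACIT chains had a median of 0.24 with 6 positive, and the 6 collagen VI chains, which form beaded filaments, a median of -0.48 with 5 negative. Without the library labelled control 3 the medians were -0.64 for basement membrane, -0.25 for fibrillar, -0.024 for other and 0.13 for FACIT genes, 39 of the 42 collagens had the same sign as with it, and edgeR called none. Without the library labelled control 2 the medians were -1.06, -0.73, -0.044 and 0.29. In that fit edgeR called 13 collagens lower, 31.0% of those tested, and none higher, against 20.7% of all genes lower and 11.0% higher. All 7 collagens that DESeq2 called were among the 13, but both fits used the same counts, so this overlap is no separate support.

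**Figure D3:**
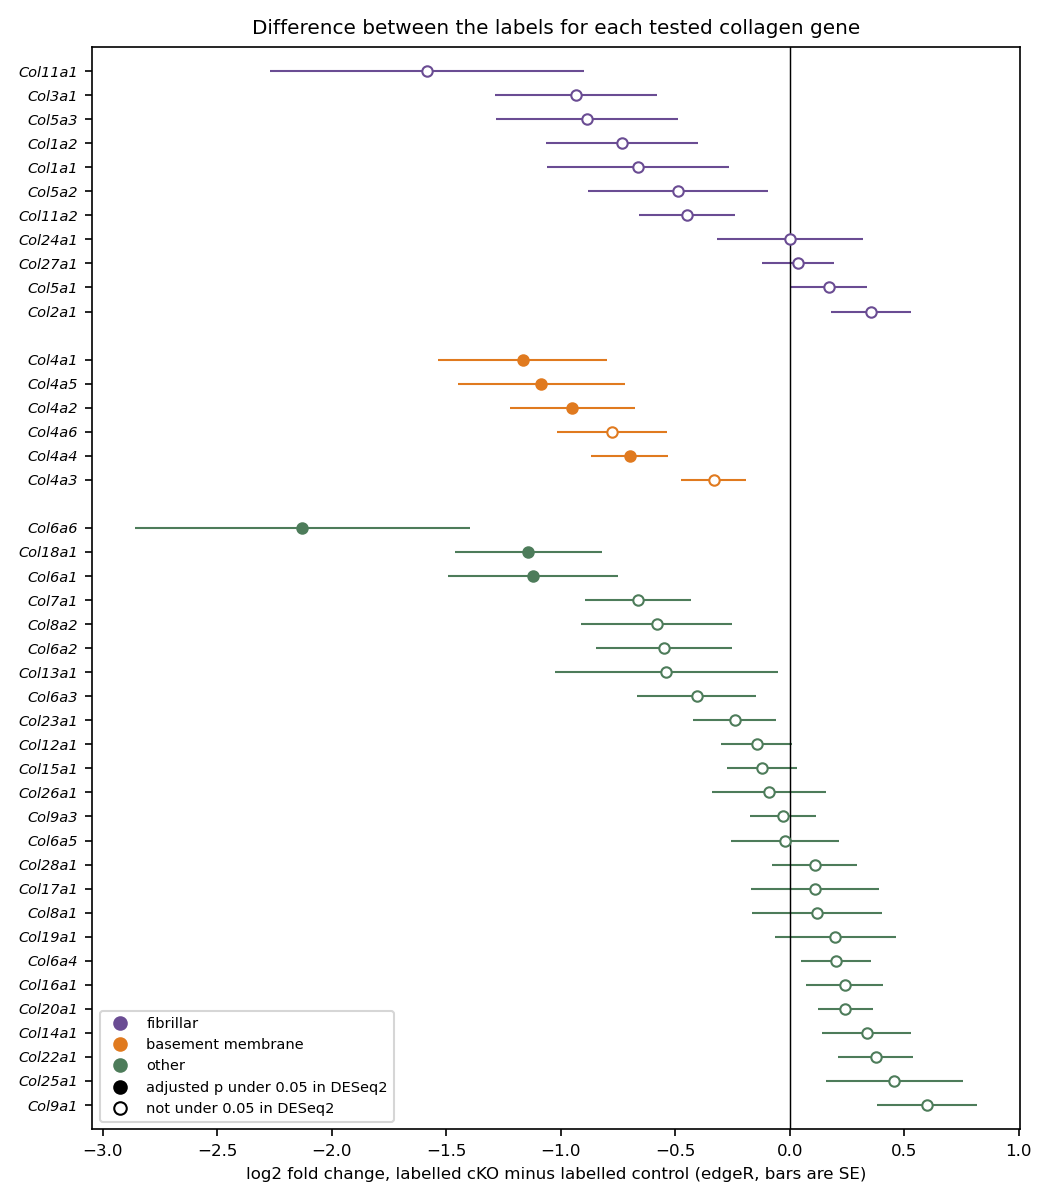
Log2 fold change of the expected counts (labelled cKO minus labelled control) from edgeR for each of the 42 tested collagens, with bars of 1 SE, coloured by class, filled where the adjusted p in DESeq2 was below 0.05. All 6 collagen IV genes lie left of 0 with 4 of them filled, and Col9a1 lies farthest to the right at 0.60.

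The 6 collagen IV genes lie in 3 head-to-head pairs, and each pair codes for chains that assemble with each other or with a close relative. Col4a1 (chr8:11198423-11312889) and Col4a2 (chr8:11312805-11449287) code for the chains found in nearly all basement membranes. Their RefSeq spans overlapped by 85 bases at the starts. Col4a1 had 7.11, 3.49 and 11.81 FPKM under the label control and 3.43, 2.85 and 2.95 under the label cKO. Labelled control 3 was the highest, and labelled control 2 lay just above the highest library labelled cKO. Its log2 fold change was -1.17 (SE 0.37), 2.24-fold lower, with an adjusted p of 0.166 in edgeR and 0.0233 in DESeq2. Col4a2 had 9.18, 6.35 and 11.30 FPKM against 5.25, 5.27 and 4.35, with no overlap. Its log2 fold change was -0.95 (SE 0.27), with adjusted p of 0.166 in edgeR and 0.0226 in DESeq2. The ratio of Col4a1 to Col4a2 FPKM was 0.775, 0.550 and 1.05 under the label control and 0.653, 0.541 and 0.678 under the label cKO, so the ratio overlapped between the groups. Without the library labelled control 3 the log2 fold change was -0.69 for Col4a1 and -0.65 for Col4a2.

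Col4a3 and Col4a4 code for chains of the specialised network of basement membranes such as that of the kidney glomerulus and the seminiferous tubule. They lie head to head (Col4a4 chr1:82448419-82587034, Col4a3 chr1:82586921-82722059), with spans that overlap by 114 bases. Col4a4 had 4.8, 3.43 and 5.09 FPKM against 2.73, 2.76 and 2.53, with a log2 fold change of -0.70 (SE 0.17). The groups did not overlap, and the adjusted p was 0.166 in edgeR and 0.0177 in DESeq2. Col4a3 had 2.33, 1.85 and 2.37 FPKM against 1.58, 1.63 and 1.63, with a log2 fold change of -0.33 (SE 0.14) and adjusted p of 0.179 in edgeR and 0.218 in DESeq2. Without the library labelled control 3 the log2 fold changes were -0.57 for Col4a4 and -0.28 for Col4a3. The ratio of Col4a3 to Col4a4 FPKM was 0.485, 0.539 and 0.466 under the label control and 0.579, 0.591 and 0.644 under the label cKO, without overlap.

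Col4a5 and Col4a6 share the X chromosome and lie head to head with 1274 bases between their RefSeq starts (Col4a6 chrX:141165403-141474095, Col4a5 chrX:141475370-141689236). Col4a5 had 2.33, 1.55 and 4.10 FPKM under the label control and 1.29, 1.32 and 0.98 under the label cKO, and Col4a6 had 1.67, 1.30 and 2.10 against 1.0, 1.08 and 1.15. In both genes labelled control 3 was the highest library and no FPKM value overlapped between the groups. On log2 CPM Col4a5 overlapped, as did Col4a1, while the other 4 collagen IV genes did not. The log2 fold change was -1.08 (SE 0.36) for Col4a5 and -0.78 (SE 0.24) for Col4a6, each with an adjusted p of 0.166 in edgeR. In DESeq2 the adjusted p was 0.0440 for Col4a5 and 0.0723 for Col4a6. Leaving out labelled control 3 gave log2 fold changes of -0.66 and -0.62. Upstream sequences of this pair are shown because the genes start close together and face apart, from the RefSeq promoter table of assembly GRCm38.p6, each 5' to 3' on the strand of its gene. The windows precede the start site given in that table and stop short of GENCODE exons, 34 bases before that site for Col4a5. The RefSeq spans given above reach farther out than these start sites, so the last bases of both windows lie within the span of the gene. Capitals mark matches to CCAAT or to GGGCGG on either strand, the letters of the CCAAT box and of the GC box to which the factors NF-Y and Sp1 are known to bind.
Col4a6 (chrX:141474077-141474326, minus strand): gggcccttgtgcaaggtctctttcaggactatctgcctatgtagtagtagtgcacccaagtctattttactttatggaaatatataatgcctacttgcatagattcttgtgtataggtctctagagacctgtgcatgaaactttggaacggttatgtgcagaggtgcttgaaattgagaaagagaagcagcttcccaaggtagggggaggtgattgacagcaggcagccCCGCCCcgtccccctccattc
Col4a5 (chrX:141475169-141475384, plus strand): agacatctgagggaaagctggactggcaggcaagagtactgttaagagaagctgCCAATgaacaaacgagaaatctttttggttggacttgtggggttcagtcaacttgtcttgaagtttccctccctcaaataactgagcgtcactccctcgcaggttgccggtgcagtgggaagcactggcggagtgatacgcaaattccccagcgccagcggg
The printed sequence of Col4a6 held a GC box and that of Col4a5 a CCAAT box. The motif search described below also counted a GC box for Col4a5, which does not lie wholly within its printed sequence.

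**Figure D4:**
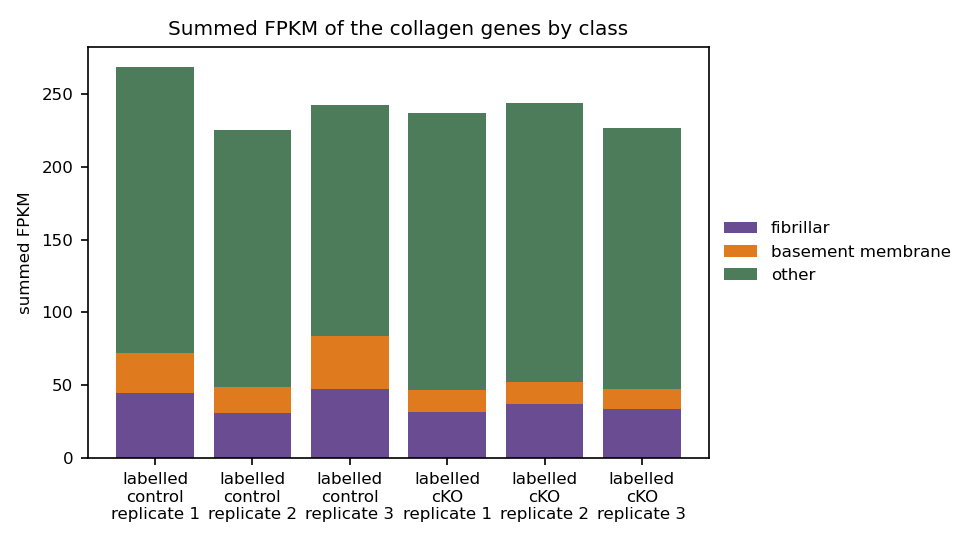
Summed FPKM of the collagen genes in each library (bars start at 0), stacked by class. The total lies between 225 and 269 in all 6 libraries, while the basement membrane part is 17.97 to 36.77 under the label control and 13.59 to 15.28 under the label cKO.

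As a share of the collagen RNA, the basement membrane class stood lower under the label cKO and the other class higher. Summed collagen FPKM was 269, 225 and 243 under the label control and 237, 244 and 227 under the label cKO, so the totals overlapped. The 6 collagen IV genes supplied 10.2, 7.98 and 15.2% of it against 6.45, 6.11 and 5.99%, with no overlap. Fibrillar genes supplied 16.5, 13.5 and 19.4% against 13.2, 15.2 and 14.7%, with overlap. The other collagens supplied 73.3, 78.5 and 65.4% against 80.3, 78.7 and 79.3%, again with no overlap, though labelled control 2 and labelled cKO 2 lay close together. Shares of a total depend on each other, and the summed FPKM of the other collagens overlapped, at 197, 177 and 159 against 190, 192 and 180.

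Among fibrillar collagens, the chains of collagens I and III, the bulk of interstitial fibrils, were highest in the library labelled control 3 and overlapped between the labels. Col1a2 (chr6:4505618-4541543) had 8.48, 4.28 and 12.62 FPKM under the label control and 5.18, 4.91 and 4.07 under the label cKO. Col1a1 (chr11:94936224-94953042) had 3.17, 1.57 and 4.8 against 1.93, 2.42 and 1.24, and Col3a1 (chr1:45311538-45349706) had 5.44, 3.0 and 7.72 against 2.97, 3.16 and 1.70. In all 3 genes labelled control 2 lay among the libraries labelled cKO. Log2 fold changes were -0.73 (SE 0.33) for Col1a2, -0.66 (SE 0.40) for Col1a1 and -0.93 (SE 0.35) for Col3a1, with adjusted p of 0.191, 0.278 and 0.168 in edgeR and 0.129, 0.236 and 0.0668 in DESeq2. Leaving out the library labelled control 3 gave log2 fold changes of -0.34, -0.25 and -0.60. The 2 chains of collagen I kept a nearly fixed ratio in the libraries labelled control, where Col1a1 over Col1a2 FPKM was 0.374, 0.367 and 0.380, while it was 0.373, 0.493 and 0.305 under the label cKO. Collagen I holds 2 of the Col1a1 chain for each Col1a2 chain, and the ratio of the RNAs in FPKM was below 0.5 in every library. The ratio of Col3a1 to Col1a1 was 1.72, 1.91 and 1.61 against 1.54, 1.31 and 1.37, without overlap.

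Col2a1, known as the main collagen of cartilage (chr15:97975602-98004724), had the highest mean of the fibrillar genes over the 6 libraries, at 13.39, 11.89 and 9.82 FPKM against 11.03, 15.70 and 15.30. Its groups overlapped, and its log2 fold change was 0.36 (SE 0.17) with an adjusted p of 0.209 in edgeR. Col5a1, a chain of the collagen that seeds fibrils (chr2:27886381-28039510), had 5.05, 3.43 and 3.81 FPKM against 4.55, 4.37 and 4.22, with a log2 fold change of 0.17 (SE 0.17). Its partner Col5a2 was far lower, at 0.21 to 0.69 FPKM, with a log2 fold change of -0.49 (SE 0.39). Col5a2 lies 24624 bases from Col3a1 on chromosome 1. Col27a1 (chr4:63214009-63334991) had 5.71, 4.44 and 4.40 FPKM against 4.11, 4.70 and 5.21, and its log2 fold change of 0.036 (SE 0.16) changed sign in 6 of the settings tried. The remaining fibrillar genes had a mean FPKM below 1: Col11a1 at -1.58 (SE 0.69), Col5a3 at -0.89 (SE 0.40), Col11a2 at -0.45 (SE 0.21) and Col24a1 at 0.00076 (SE 0.32) on the log2 scale. Of these, Col11a2 did not overlap between groups. In Col11a1 and Col5a2 the library labelled control 3 was the highest, as in the chains of collagens I and III. Without that library the log2 fold change was -0.63 for Col11a1 and -0.087 for Col5a2.

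Several FACIT chains lay higher under the label cKO. All 4 collagens without overlap in that direction on log2 CPM were FACIT chains, Col22a1, Col20a1, Col14a1 and Col9a1, out of 8 FACIT chains tested. These 4 were 9.52% of the tested collagens, against 18.0% of all genes. The log2 fold change was 0.38 (SE 0.16) for Col22a1, 0.24 (SE 0.12) for Col20a1 and 0.34 (SE 0.20) for Col14a1, with adjusted p of 0.182, 0.214 and 0.266 in edgeR and 0.149, 0.243 and 0.279 in DESeq2. They were 0.21, 0.15 and 0.16 when the library labelled control 3 was left out. Col14a1, a FACIT of dense connective tissue, overlapped in FPKM, at 5.14, 4.78 and 3.34 against 5.23, 5.60 and 4.87. Col9a1, a chain of the cartilage FACIT collagen IX (chr1:24177589-24252738), had 1.57, 1.59 and 1.20 FPKM under the label control and 2.21, 1.87 and 2.08 under the label cKO. Its groups did not overlap, and its log2 fold change of 0.60 (SE 0.22) was the largest positive value among collagens, with an adjusted p of 0.167 in edgeR and 0.123 in DESeq2, and was 0.47 without the library labelled control 3. Of its partner chains, Col9a3 had 7.39, 5.84 and 6.64 FPKM against 5.74, 5.72 and 6.67, with a log2 fold change of -0.030 (SE 0.14), and Col9a2 was too low to test. The exons of Col9a3 overlap those of the antisense gene Tcfl5 over 234 bases, 7.68% of its exonic sequence, and without a stated strand setting their reads cannot be told apart. Col16a1 had a log2 fold change of 0.24 (SE 0.17), Col19a1 of 0.20 (SE 0.26) and Col12a1 of -0.14 (SE 0.16). In none of the 8 FACIT chains was the library labelled control 3 the highest, and in 5 it was the lowest, the opposite of the collagen IV genes, where it was the highest in all 6. Of all tested genes, that library held the highest value in 40.9% and the lowest in 35.6%.

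Chains of collagen VI, which forms microfibrils between cells and basement membranes, did not behave as a unit. Col6a1 (chr10:76708792-76726044) had 5.69, 3.75 and 11.53 FPKM under the label control and 3.39, 3.01 and 2.52 under the label cKO, with no overlap. Its log2 fold change was -1.12 (SE 0.37), with adjusted p of 0.166 in edgeR and 0.0329 in DESeq2, and it was -0.58 without the library labelled control 3. Col6a2, its neighbour on chromosome 10 at a distance of 85161 bases, had 2.46, 1.92 and 3.15 FPKM against 1.73, 2.02 and 1.03, with overlap and a log2 fold change of -0.55 (SE 0.30). Col6a3, which joins these chains in the usual form of collagen VI, had a log2 fold change of -0.41 (SE 0.26). A second group of chains, Col6a6, Col6a5 and Col6a4, lies in a row on chromosome 9 with gaps of 27823 and 27854 bases. Col6a4 (chr9:105990318-106096828) had the highest mean FPKM of the 6 chains, though not the highest level in the library labelled control 3, at 9.96, 10.25 and 6.63 FPKM against 10.58, 12.20 and 9.58, and had a log2 fold change of 0.20 (SE 0.15). Col6a6 was rare, at 0.80, 0.20 and 1.60 FPKM against 0.29, 0.30 and 0.10, with labelled control 2 among the libraries labelled cKO. Its log2 fold change of -2.13 (SE 0.73) was the most negative of all collagens, with adjusted p of 0.166 in edgeR and 0.0266 in DESeq2, and it was -1.33 without the library labelled control 3. Col6a5, between them, had a log2 fold change of -0.019 (SE 0.24).

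The multiplexins Col15a1 and Col18a1 code for proteoglycan collagens of the basement membrane zone, and the C-terminal fragment of the Col18a1 chain is endostatin. Their levels differed in how they varied. Col18a1 (chr10:77052178-77166530) had 9.69, 4.76 and 13.62 FPKM under the label control and 3.83, 4.22 and 3.76 under the label cKO, with no overlap. Its log2 fold change was -1.14 (SE 0.32), 2.21-fold lower, with adjusted p of 0.166 in edgeR and 0.0158 in DESeq2, and it was -0.78 without the library labelled control 3. Col15a1 (chr4:47207655-47313167) had 11.35, 9.86 and 11.63 FPKM against 11.39, 9.31 and 10.59, with a log2 fold change of -0.12 (SE 0.15) and an adjusted p of 0.601 in edgeR. The ratio of Col18a1 to Col15a1 was 0.854, 0.483 and 1.17 against 0.336, 0.453 and 0.355, and did not overlap between the labels. The upstream sequence of Col18a1, the collagen with the lowest adjusted p in DESeq2, is shown from the same table with the same marks. It precedes the farther upstream of the 2 start sites given there and ends 18 bases before it.
Col18a1 (chr10:77166549-77166780, minus strand): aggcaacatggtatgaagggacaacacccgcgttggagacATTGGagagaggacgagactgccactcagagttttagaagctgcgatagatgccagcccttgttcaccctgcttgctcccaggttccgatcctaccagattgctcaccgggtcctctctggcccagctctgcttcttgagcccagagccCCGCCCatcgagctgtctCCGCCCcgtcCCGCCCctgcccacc
The printed sequence of Col18a1 held a CCAAT box and 3 GC boxes. With Col7a1, Col15a1, Col17a1 and Col18a1 counted as basement membrane genes instead, that class of 10 had a median log2 fold change of -0.74 and the other class of 21 tested a median of -0.019.

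Over the 35 collagens with an entry in the RefSeq promoter table, the 250 bases before each start site in that table were searched for each motif on both strands. A gene was counted if any of its windows held the motif. GGGCGG was found in 21 of 35 (60%), against 35.4% of all 27025 genes with an entry, and CCAAT in 13 of 35 (37.1%), against 37.5%. TATAAA was found in 5 of 35 (14.3%), against 14.3%. The E-box CACGTG, to which MAX and its partners are known to bind, was in none of the 35, against 6.86% of all genes with an entry. GCGGGAA, a core bound by E2F factors, was in 1, Col17a1, against 4.38%. These are letters found in a window and not measured binding.

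The other collagens were low or overlapped between the labels. Col7a1, the collagen of anchoring fibrils, had 0.57, 0.44 and 0.55 FPKM against 0.34, 0.32 and 0.26, without overlap, and a log2 fold change of -0.66 (SE 0.23) with an adjusted p of 0.166 in edgeR and 0.148 in DESeq2. Transmembrane collagens spread on both sides of 0: Col13a1 at -0.54 (SE 0.49), Col23a1 at -0.24 (SE 0.18), Col17a1 at 0.11 (SE 0.28) and Col25a1 at 0.46 (SE 0.30). Of these, Col23a1 did not overlap, at 1.61, 1.53 and 1.45 FPKM against 1.31, 1.06 and 1.26. Network collagens Col8a1 and Col8a2 had log2 fold changes of 0.12 (SE 0.28) and -0.58 (SE 0.33). Of these, Col8a2 did not overlap, at 0.31, 0.40 and 0.41 FPKM against 0.25, 0.29 and 0.16. Col26a1 and Col28a1 had -0.090 (SE 0.25) and 0.11 (SE 0.19). With 3 libraries against 3 an exact two-sided permutation test of log2(FPKM + 1) cannot go below 0.1, and among the 22 collagens tested in that way the lowest value after Benjamini-Hochberg adjustment was 0.2.

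Most genes that act on collagen had negative log2 fold changes, as the collagen IV genes did. In the list of folding and modification genes, which hydroxylate, glycosylate and chaperone the chains in the endoplasmic reticulum, edgeR called 0 of 17 tested genes, 9 were lower at an unadjusted p below 0.05, and DESeq2 called 6 of 16 lower (37.5%) and none higher. Over all genes the shares lower were 18.8% at that unadjusted p and 7.67% in DESeq2, against which the counts of this and the next 5 lists are to be read. The median log2 fold change of the list was -0.72 with 16 negative, where 50.5% of all genes were negative. Plod2, a lysyl hydroxylase that prepares chains for cross-linking, had 5.77, 2.93 and 12.45 FPKM against 1.83, 2.0 and 2.28, with a log2 fold change of -1.68 (SE 0.46) and an adjusted p of 0.0106 in DESeq2. P4hb, a subunit of prolyl hydroxylase, had 49.60, 35.29 and 70.87 FPKM against 32.81, 31.31 and 33.15, with a log2 fold change of -0.57 (SE 0.21). Ppib and Colgalt1 also lay without overlap, with log2 fold changes of -0.84 and -0.71. The single positive gene was Mia3, a gene of collagen export, at 0.10.

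Of 14 genes for secretion, processing and cross-linking, edgeR called none, 4 were lower at an unadjusted p below 0.05, and DESeq2 called 1 of 13 lower and none higher, a share of 7.69% beside the 7.67% of all genes. Their median log2 fold change was -0.71 with 11 negative. The gene called was Sparc, a collagen chaperone of the extracellular space, with 204.04, 119.74 and 406.87 FPKM against 101.89, 103.18 and 96.25. Pcolce, which enhances procollagen trimming, had 80.82, 33.69 and 147.34 FPKM against 28.21, 30.28 and 25.26, and a log2 fold change of -1.53 (SE 0.44). Adamts14, a protease that trims procollagen, had 0.56, 0.30 and 0.52 FPKM against 0.18, 0.20 and 0.11, and a log2 fold change of -1.39 (SE 0.36). Among 9 tested receptors edgeR called none, 3 were lower and 1, Itga1, was higher at an unadjusted p below 0.05, and DESeq2 called Itgb1 and Ddr2 lower. The median of the receptors was -0.44 with 6 negative, and it ranged from -1.04 with the stricter filter of 5 CPM to -0.26 in DESeq2. Ddr2, a receptor kinase for fibrillar collagen, had 1.72, 1.02 and 3.57 FPKM against 0.85, 0.64 and 0.63, and Ddr1, its relative, had a log2 fold change of -1.48 (SE 0.48), while Itga1, the alpha chain of an integrin that binds collagen IV, had a log2 fold change of 0.26 (SE 0.11).

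In the degradation list edgeR called 0 of 8 tested genes, 5 were lower at an unadjusted p below 0.05, and DESeq2 called 4 of 7 lower and none higher. Its median was -1.10 with 7 negative. The 4 were Mmp14, a membrane-bound collagenase, and Timp1, Timp2 and Timp3, which code for inhibitors of matrix proteases. A protease and protease inhibitors were thus called in the same direction. Timp2 had 109.62, 66.27 and 204.76 FPKM against 49.56, 44.55 and 45.91. Of 15 basement membrane partners edgeR called none, 8 were lower at an unadjusted p below 0.05, and DESeq2 called 6 lower and none higher. Their median was -0.73 with 14 negative. Lama1, Lamb2 and Lamc3, chains of laminins that lie beside collagen IV, had log2 fold changes of -1.21, -1.26 and -1.12. Of 11 fibril partners edgeR called none, 5 were lower at an unadjusted p below 0.05, and DESeq2 called 3, Bgn, Ogn and Thbs1, lower and none higher. Their median was -0.53 with 10 negative, and -1.04 with the stricter filter. Dcn, the fibril-binding proteoglycan decorin, had 35.46, 17.59 and 71.57 FPKM against 20.89, 18.41 and 15.97, with overlap. Without the library labelled control 3 the 6 medians were -0.42, -0.37, -0.32, -0.71, -0.48 and -0.32, in the order given.

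**Figure D5:**
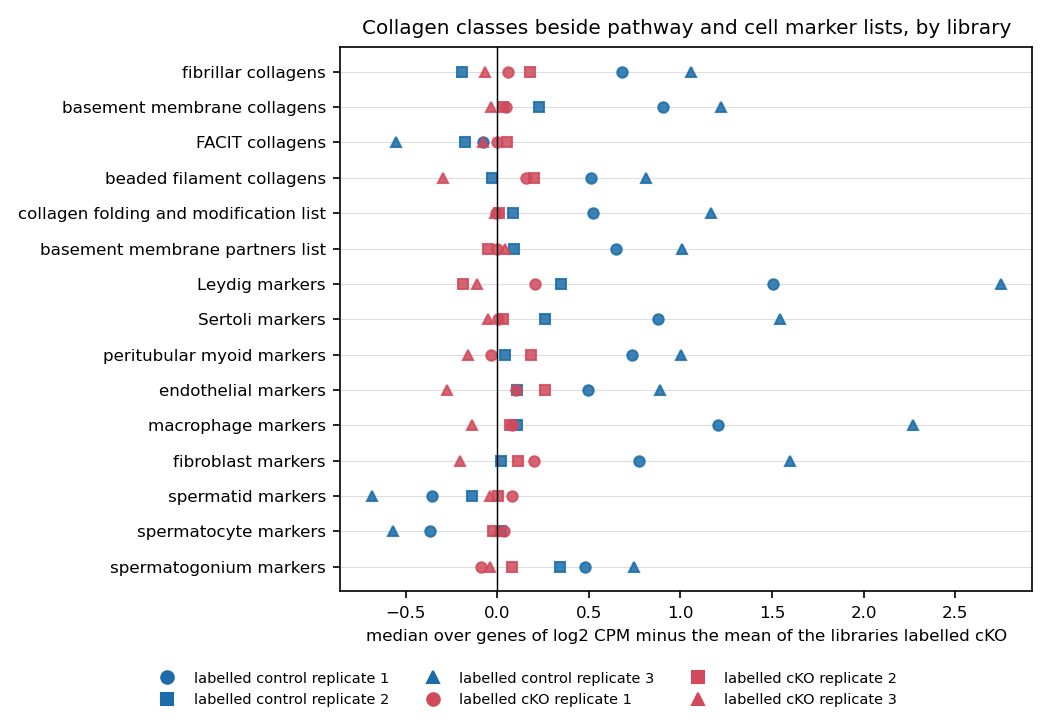
Median over the genes of each collagen class, pathway list and cell marker list of log2 CPM less the labelled cKO mean, 1 point per library. Collagen IV genes stand at 0.91, 0.23 and 1.22 in the libraries labelled control 1, 2 and 3. The Leydig, Sertoli, peritubular myoid, endothelial, macrophage and fibroblast markers follow the same order of libraries, and so do the spermatogonium markers. Sertoli markers stand at 0.88, 0.26 and 1.54, and Leydig markers at 1.5, 0.35 and 2.75. FACIT chains and spermatid markers lie below 0 in these libraries.

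Markers of somatic testis cells moved with these differences. In libraries labelled control 1, 2 and 3, the median of collagen IV genes lay 0.91, 0.23 and 1.22 above the mean of the libraries labelled cKO on the log2 scale. That of fibrillar genes lay at 0.68, -0.19 and 1.06, and that of FACIT chains at -0.079, -0.18 and -0.55. The medians of Leydig markers were 1.5, 0.35 and 2.75, of Sertoli markers 0.88, 0.26 and 1.54, and of macrophage markers 1.21, 0.11 and 2.27. For peritubular myoid markers they were 0.74, 0.043 and 1.0, and for endothelial markers 0.49, 0.11 and 0.89. Fibroblast markers stood at 0.77, 0.021 and 1.60, and spermatid markers at -0.35, -0.14 and -0.68. All of these somatic lists had the same order of libraries as the collagen IV genes. The order was not limited to somatic lists, as the spermatogonium markers, a germ cell list, stood at 0.48, 0.34 and 0.75. The log2 fold change was negative for all 8 Leydig, all 10 Sertoli, all 6 myoid and all 8 macrophage markers and for 6 of 7 endothelial and 6 of 7 fibroblast markers, and positive for all 6 spermatid and all 4 spermatocyte markers. Summed FPKM was 1693 to 8980 under the label control and 1263 to 1352 under the label cKO for Leydig markers, 722 to 1970 and 559 to 591 for Sertoli markers, and 68.9 to 147 and 56.9 to 70.9 for myoid markers. It was 48.5 to 227 and 41.9 to 49.0 for macrophage markers, 14.4 to 25.2 and 10.7 to 15.2 for endothelial markers, 27.4 to 97.2 and 24.0 to 30.5 for fibroblast markers, and 15724 to 22135 and 22759 to 25073 for spermatid markers. No marker of these 7 lists was listed at 0 in any library. Of 6 spermatogonium markers 5 were negative, and only 2 of 4 mesothelium markers and 1 of 6 epididymis markers had enough counts to test. Their part in the collagen result was not tested, and in bulk RNA fewer cells of a type and less RNA per cell cannot be told apart.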

How the data were processed

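Poly(A)-selected RNA of 6 testis libraries was compared by label, 3 labelled control and 3 labelled cKO. Each deposited table holds, per the file headers, an expected count, an FPKM value and a length in bases for each gene. Expected counts are as RSEM writes them and are not normalized, and 24.6 to 25.8% of the deposited values were not whole. FPKM values were made by the authors and are scaled for length and depth. The submitters' processing notes name bcl2fastq 2.16, HISAT2 2.0.4, Bowtie2 2.2.5, RSEM, DESeq2 and build mm10. Genes absent from a table were given 0, and the lowest FPKM listed was 0.01. No source used here gives the strand setting.

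Rounded expected counts entered edgeR 4.0.16 (R 4.3.3; quasi-likelihood test, TMM scaling, filterByExpr with a minimum count of 10 and a minimum total of 15, Benjamini-Hochberg adjustment over all 18269 genes tested, threshold 0.05). The scripts were tested on simulated data. The common biological coefficient of variation was 22.8%, above counting error except near the minimum count. Log2 fold changes are labelled cKO minus labelled control, and log2 CPM used a prior count of 2. Groups without overlap are those whose log2 CPM ranges are disjoint, unless FPKM is named. FPKM was compared between genes, and with limma 3.58.1 and exact permutation tests after a pseudocount of 1 was added. Positions and promoters come from RefSeq GRCm38.p6, the primary assembly of mm10, and exons from GENCODE M21. All 44 collagens had a position.

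Named genes were L3mbtl2, the 6 collagens of each class with the highest mean FPKM, those called in edgeR or DESeq2, the 3 with the largest positive log2 fold change, and in each pathway list the 2 most abundant genes and the 2 with the smallest p. Other collagens are named to account for all members, and other genes and the ratios of chains were chosen after their values were seen. The members and lists were chosen with earlier results of these data known. Alternatives were other scalings, DESeq2 1.42.0, limma on FPKM (a pseudocount of 1 or 0.1, FPKM of at least 1 in 3 libraries), other filters on low counts (none, or 5 CPM in 3 libraries), a replicate block, each library left out and a wider basement membrane class.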

Additional observations from a re-analysis of the deposited data

How the results depend on the processing

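No collagen was called by edgeR in the main setting. DESeq2 called 7 collagens lower under the label cKO, and leaving out each library in turn gave 0 to 13, the 13 without labelled control 2. Over all genes, DESeq2 called 72 higher and 1364 lower, limma on log2(FPKM + 1) and on log2(FPKM + 0.1) called 1 higher each, and leaving out a library gave 0 to 2049 higher and 0 to 3851 lower. In the 6 pathway lists together DESeq2 called 22 genes lower, and leaving out a library gave 0 to 42 lower and 0 to 1 higher. The cause was not tested.

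The median of the other collagens was -0.030 and became -0.13 with library totals alone, and it was positive without labelled control 1 (0.045) and with limma on log2(FPKM + 1) (0.0031) and log2(FPKM + 0.1) (0.017). Library totals are a scaling that moved the median of all genes from -0.0048 to -0.10. That median turned positive with DESeq2 size factors (0.0077), with DESeq2 (0.015) and without labelled control 2 (0.024), and it was -0.0164 without labelled control 1. The median of the receptors became -0.78 and -0.96 with these limma fits and -1.04 with the stricter filter, and that of the fibril partners -0.94 with limma on log2(FPKM + 0.1) and -1.04 with the stricter filter. Of 22 named collagens, 21 kept their sign in each setting run, which for Col6a6 and Col25a1 left out limma and the stricter filter. Col27a1, at 0.036, became -0.064 with library totals, -0.041 and -0.049 with limma on log2(FPKM + 1) and log2(FPKM + 0.1), and ranged from -0.040 to 0.17 with a library left out.

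Replicate numbers did not pair the libraries: deviations of same-numbered libraries correlated at 0.0428, -0.00665 and -0.0388, and with the replicate number as a block edgeR called 0 collagens. For collagens with few counts, such as Col8a2 with at most 31, counting error limits the fold change. FPKM of genes with several transcripts depends on the deposited length.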
